A study of Mus musculus with 8 samples.

Results

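CXC chemokines are small secreted proteins that direct leukocytes along a gradient, and they act through receptors of the G protein-coupled class. Cxcl1, Cxcl2, Cxcl3 and Cxcl5 draw neutrophils, mainly through Cxcr2, and are induced in epithelium and macrophages by IL-1, TNF, IL-17 and Toll-like receptor ligands through NF-κB. Cxcl9 and Cxcl10 are induced by interferons and draw activated T and natural killer cells. The conjunctiva, the mucous membrane that lines the lids and covers the sclera, is a site where such leukocytes enter in dry eye. The 9 genes described here are the rows of an inflammation panel of 248 genes whose symbol is Cxcl1, Cxcl2, Cxcl3, Cxcl5, Cxcl9, Cxcl10, Cxcr1, Cxcr2 or Cxcr4. They were chosen by name, as 4 neutrophil-attracting ligands, 2 interferon-induced ligands and 3 receptors.

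Conjunctival RNA of 8 female C57BL/6J mice, 8 weeks old by the labels, was measured on the nCounter platform, which counts fluorescent barcodes on probes hybridized to each transcript. All 8 mice were under desiccating stress (DS) for 5 days, a model of dry eye in which a drafty room of low humidity is combined with scopolamine, a blocker of tear secretion. During DS, 4 mice were gavaged daily with tributyrin, a triglyceride that is cleaved to butyrate, and 4 with PBS as vehicle. The unstressed mice of the study were not analysed here, so no value below tells what DS itself did. Mice carry the numbers of the labels, 5 to 8 for vehicle and 9 to 12 for tributyrin, and nothing states whether they shared cages. Values are normalized counts, scaled by the authors to reference genes. As the tissue was taken whole, fewer cells of a type and less RNA per cell cannot be told apart. None of the 8 conjunctival epithelium markers listed for a check of the tissue label was measured, so that check could not be made.

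None of the 9 genes differed between DS vehicle and DS tributyrin mice past the test. All 9 had a mean under 100 normalized counts, and all 9 log2 fold changes, tributyrin over vehicle, lay between 0.05 and 0.40. With limma and Benjamini-Hochberg adjustment over 248 genes, 0 of 9 members passed an adjusted p of 0.05, where 0% of the panel did. Before adjustment, a limma p under 0.05 occurred for 0 of 9 members and 12.5% of the panel. Groups that did not overlap, with every tributyrin mouse higher, occurred for 0 of 9 members and 3.23% of the panel. With every tributyrin mouse lower they occurred for 0 of 9 members and 4.03% of the panel. The 9 of 9 log2 fold changes above 0 are to be read against 71.4% of the panel, and against 81.3% of the 96 other genes with a mean under 100. The median was 0.20 for the 9 members, 0.06 for all 248 genes and 0.19 for those 96 genes.

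**Figure D1:**
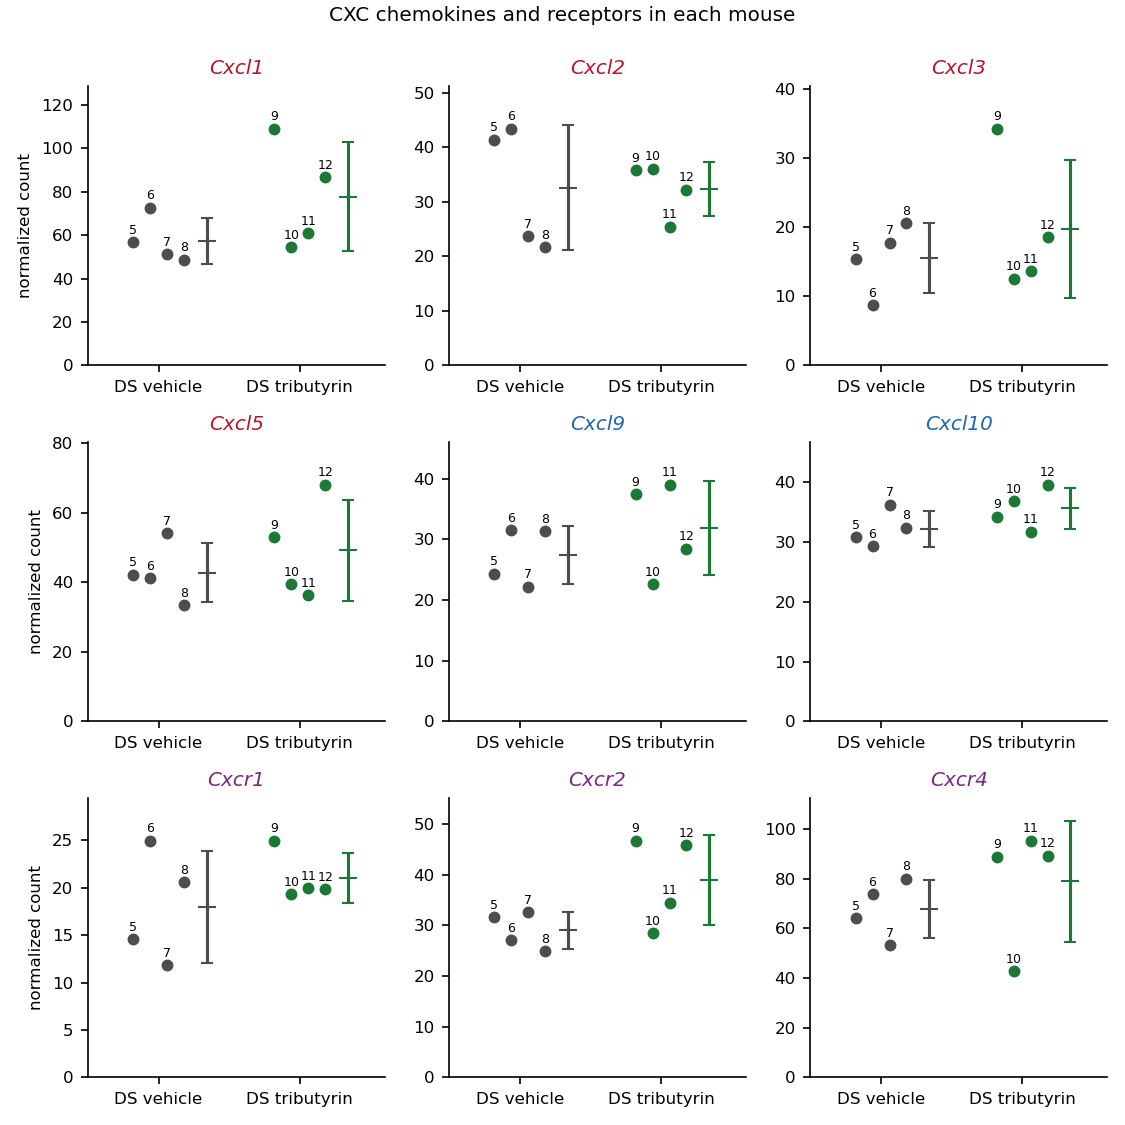
Normalized count (linear axis from 0) of each CXC chemokine and receptor in each mouse, labelled by mouse number, with the mean and SD of 4 mice beside the points. The groups overlap for all 9 genes, and tributyrin mouse 9 has the highest value for Cxcl1, Cxcl3 and Cxcr2.

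Positions in the mouse genome are those of the RefSeq annotation (GRCm38.p6). The neutrophil-attracting ligands are neighbours on chromosome 5, with Cxcl5 at chr5:90759298-90761625, Cxcl3 at chr5:90786101-90788093, Cxcl1 at chr5:90891245-90893121 and Cxcl2 at chr5:90903899-90905938. Cxcl9 (chr5:92321331-92328079) and Cxcl10 (chr5:92346638-92348889) lie further along the same chromosome, both on the minus strand. Cxcr2 (chr1:74153994-74161246) and Cxcr1 (chr1:74191785-74194708) are neighbours on chromosome 1, apart from Cxcr4 (chr1:128588199-128592299). Cxcl1, Cxcl2 and Cxcl3 are close copies of each other, as are Cxcr1 and Cxcr2, and the sources used here do not say whether their probes also bind the other copies.

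Promoters were searched for 3 motifs that are known to mediate the induction of these ligands. Promoter sequences of RefSeq genes (GRCm38.p6) were at hand for 8 of the 9 members. Cxcl5, though annotated, was not among them. Each ran from 250 bases before the start of the gene to 50 bases after it, and sites further away were not searched. The NF-κB motif was searched by its usual degenerate form on both strands. It was found in the 4 promoters of Cxcl1, Cxcl2, Cxcl3 and Cxcl10, and in 4.51% of 32851 promoters of the same length. In Cxcl1, Cxcl2 and Cxcl3 it is the same run of bases, read as a match on both strands with an offset of 1 base, and it begins 71, 97 and 73 bases before the start of the gene. In Cxcl10 there are 2 different matches, 159 and 103 bases before the start. The core of the interferon-stimulated response element (ISRE; GAAA, any 2 bases, GAAA) was found on either strand of 3.44% of promoters. Among the members it occurred only in Cxcl10, 213 bases before the start. The gamma-interferon activation site (GAS; TTC, any 3 bases, GAA) was found in 8.30% of promoters and in 0 of the 8. A match is a description of letters, not of binding. The stretches that hold the matches are shown 5′ to 3′ on the strand of the gene, with NF-κB and ISRE matches in capitals.
Cxcl1 (chr5:90891134-90891214, plus strand): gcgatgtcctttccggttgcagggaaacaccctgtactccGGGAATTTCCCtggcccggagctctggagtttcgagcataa
Cxcl2 (chr5:90903762-90903842, plus strand): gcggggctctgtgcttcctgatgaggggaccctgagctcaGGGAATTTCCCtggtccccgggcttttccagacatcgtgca
Cxcl3 (chr5:90785988-90786068, plus strand): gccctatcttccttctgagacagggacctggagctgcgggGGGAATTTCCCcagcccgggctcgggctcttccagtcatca
Cxcl10 (chr5:92348970-92349119, minus strand): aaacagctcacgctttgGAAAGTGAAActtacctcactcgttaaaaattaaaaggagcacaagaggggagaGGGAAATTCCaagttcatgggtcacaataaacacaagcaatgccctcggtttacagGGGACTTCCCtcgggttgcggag

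Among the neutrophil-attracting ligands, Cxcl1 had the largest log2 fold change. Cxcl1, also known as KC, had normalized counts of 56.8, 72.7, 51.1 and 48.7 in vehicle mice 5 to 8 and of 109.1, 54.5, 60.8 and 86.7 in tributyrin mice 9 to 12. Mice 9 and 12 lay above every vehicle mouse, while mice 10 and 11 lay within the vehicle range. The vehicle mean was 57.3 ± 10.8 (SD, n = 4) and the tributyrin mean 77.8 ± 25.1 (SD, n = 4). The log2 fold change was 0.40 (95% interval -0.14 to 0.95; limma adjusted p = 0.480), and the exact Mann-Whitney test of the study's methods gave an unadjusted p of 0.200.

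Cxcl2 (MIP-2), which macrophages release early, was the member with the smallest log2 fold change. Its normalized counts were 41.4, 43.4, 23.7 and 21.6 in mice 5 to 8 and 35.8, 36.1, 25.4 and 32.2 in mice 9 to 12. The vehicle mean was 32.5 ± 11.4 (SD, n = 4) and the tributyrin mean 32.4 ± 4.97 (SD, n = 4), so the means on the count scale ran opposite to the log2 fold change. All 4 tributyrin values fell inside the span of the vehicle values, which formed a higher and a lower pair of mice. The log2 fold change was 0.05 (95% interval -0.54 to 0.64; limma adjusted p = 0.939), so that the interval covers a level from 0.685 to 1.56 times that of vehicle. Its sign changed without vehicle mouse 7 (-0.079) or vehicle mouse 8 (-0.12), and it was -0.0035 without tributyrin mouse 9 and -0.0064 without tributyrin mouse 10.

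Cxcl3, the least abundant member by count, had 15.4, 8.7, 17.8 and 20.5 normalized counts with vehicle and 34.3, 12.6, 13.6 and 18.6 with tributyrin. Mouse 9 alone lay above the vehicle range. Its log2 fold change was 0.29 (95% interval -0.59 to 1.16; limma adjusted p = 0.720), and without tributyrin mouse 9 it was -0.016. Cxcl5 (LIX), a product of epithelial cells, had 42.2, 41.2, 54.1 and 33.5 normalized counts with vehicle and 53.0, 39.4, 36.3 and 68.1 with tributyrin. Mouse 12 alone lay above the vehicle range. For Cxcl5 the log2 fold change was 0.18 (95% interval -0.34 to 0.70; limma adjusted p = 0.716) and 0.0062 without tributyrin mouse 12.

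The interferon-induced ligands varied less among mice than the neutrophil-attracting ligands did by their log2 SD within groups, which was 0.13 for Cxcl10 and 0.32 for Cxcl9 and 0.36 to 0.60 for the 4 others. Whether these spreads differ was not tested, and the SD of Cxcl10 lay below the 0.25 expected from counting alone. Cxcl10 (IP-10) had 30.8, 29.3, 36.3 and 32.4 normalized counts in vehicle mice and 34.3, 36.9, 31.8 and 39.6 in tributyrin mice. Mice 10 and 12 lay just above the vehicle range. The log2 fold change was 0.15 (95% interval -0.07 to 0.36; limma adjusted p = 0.480), an interval that rests on that small SD. With a mean-variance trend in the model the interval of Cxcl10 was -0.18 to 0.47. Cxcl9 (MIG), which is induced mainly by interferon gamma, had 24.3, 31.5, 22.2 and 31.4 normalized counts with vehicle and 37.4, 22.6, 39.0 and 28.5 with tributyrin. Mice 9 and 11 lay above the vehicle range. Its log2 fold change was 0.20 (95% interval -0.26 to 0.67; limma adjusted p = 0.679).

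Of the receptors, Cxcr2, through which the neutrophil-attracting ligands act, came nearest to the threshold. It had 31.6, 27.1, 32.6 and 24.9 normalized counts in vehicle mice 5 to 8 and 46.7, 28.5, 34.5 and 45.8 in tributyrin mice 9 to 12. Mice 9, 11 and 12 lay above every vehicle mouse, and mouse 10 lay within the vehicle range. The vehicle mean was 29.1 ± 3.67 (SD, n = 4) and the tributyrin mean 38.9 ± 8.89 (SD, n = 4). The log2 fold change was 0.40 (95% interval -0.0094 to 0.81; limma unadjusted p = 0.0543, adjusted p = 0.416). The exact Mann-Whitney test gave an unadjusted p of 0.114.

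Cxcr1, the close relative of Cxcr2, had 14.6, 25.0, 11.8 and 20.5 normalized counts with vehicle and 24.9, 19.3, 19.96 and 19.8 with tributyrin. No tributyrin mouse lay above the vehicle range. The log2 fold change was 0.28 (95% interval -0.26 to 0.81; limma adjusted p = 0.651). Cxcr4, the receptor of Cxcl12 on most leukocytes and on many stromal cells, had 64.1, 73.8, 53.3 and 80.0 normalized counts with vehicle and 88.8, 42.8, 95.3 and 89.2 with tributyrin. Mice 9, 11 and 12 lay above every vehicle mouse and mouse 10 below every one. For Cxcr4 the log2 fold change was 0.17 (95% interval -0.45 to 0.79; limma adjusted p = 0.767), and 0.44 without tributyrin mouse 10 (adjusted p = 0.195). Cxcr3, the receptor of Cxcl9 and Cxcl10, was not analysed here.

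**Figure D2:**
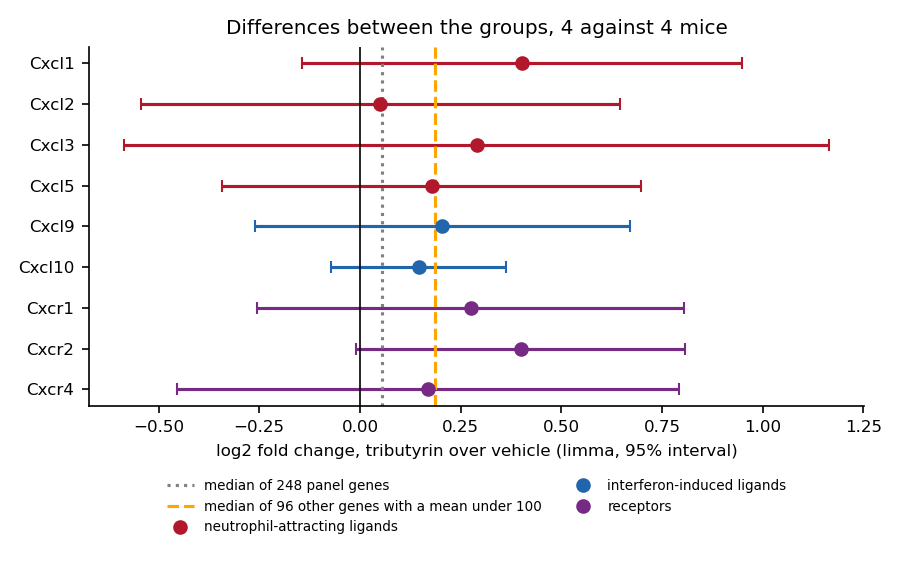
Log2 fold change of each gene, tributyrin over vehicle, as point and 95% interval from limma (n = 4 mice per group), coloured by role. All 9 intervals include 0, and the dotted and dashed lines mark the median of the panel (0.06) and of the 96 other genes with a mean under 100 (0.19).

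Set against each other by role, the 3 groups did not separate. The median log2 fold change was 0.23 for the neutrophil-attracting ligands (range 0.05 to 0.40), 0.18 for the interferon-induced ligands (range 0.15 to 0.20) and 0.28 for the receptors (range 0.17 to 0.40). These are descriptions without a test. Within a mouse the scaling cancels when 1 role is set against another. The mean log2 value of the neutrophil-attracting ligands minus that of the interferon-induced ligands was 0.36, 0.10, 0.21 and -0.13 in mice 5 to 8 and 0.53, 0.12, -0.25 and 0.37 in mice 9 to 12. The tributyrin mice thus spanned a range (-0.25 to 0.53) that held the whole vehicle range (-0.13 to 0.36). The neutrophil-attracting ligands minus the receptors had a vehicle mean of 0.0075 ± 0.25 (SD, n = 4) and a tributyrin mean of -0.044 ± 0.28 (SD, n = 4). The ratio of Cxcl1 to Cxcl10 was 1.41 to 2.48 in vehicle mice and 1.48 to 3.18 in tributyrin mice, and that of Cxcr2 to Cxcr1 was 1.09 to 2.75 and 1.48 to 2.31. The level of 1 gene against another also depends on how well each probe hybridizes, so only the change of such a ratio between groups can be read.

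The level of all 9 genes was low for this panel. Mean normalized counts over the 8 mice ran from 17.7 for Cxcl3, 9th from the lowest of 248, to 73.4 for Cxcr4, which was 92nd. The median of the panel was 298. For orientation, 8 genes of other tissues were looked up after the values had been seen: Crp, Mbl2, C8a, C8b, C9, Kng1 and Masp2 of the liver, and Myl2 of heart and slow muscle. Their means ran from 18.7 to 56.7 normalized counts, a range that held 6 of the 9 members, with Cxcl3 below it and Cxcl1 and Cxcr4 above it. Cxcr4 and Cxcl1 each exceeded the highest of these genes in 7 of 8 mice, and Cxcl5 in 2. Cxcl2, Cxcl3, Cxcl9, Cxcl10, Cxcr1 and Cxcr2 exceeded it in 0 of 8 mice, which sets no lower limit on their true expression, as each probe has its own background. Negative control probes were not analysed here. All 8 genes of other tissues had a log2 fold change above 0, tributyrin over vehicle, beside 81.3% of the 96 other genes with a mean under 100. Their log2 fold changes ran from 0.17 to 0.48, a range that also held the 0.40 of Cxcl1 and of Cxcr2. Their median was 0.32, beside 0.20 for the 9 members. The reason was not tested.

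**Figure D3:**
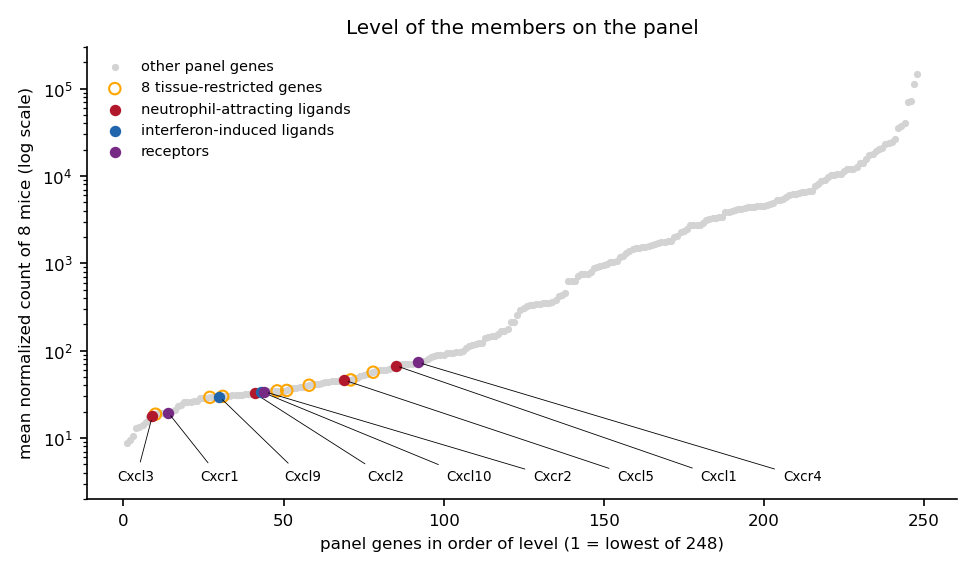
Mean normalized count over the 8 mice (log axis) of the 248 panel genes in order of level, with the members coloured by role and the 8 tissue-restricted genes as open circles. Members lie between 17.7 and 73.4 and 9th to 92nd from the lowest.

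The counts before scaling were compared next. Taken off the log2 scale, 100% of the values of a mouse were whole multiples of a single step, so the counts as they stood before scaling could be recovered. Totals over the panel were 1035041 to 1494519 in vehicle mice and 742068 to 1344723 in tributyrin mice. The smallest totals were those of tributyrin mice 9 (742068) and 12 (923604), with scaling factors of 1.56 and 1.24. Before scaling, Cxcl1 had 70, 67, 69 and 45 counts in mice 5 to 8 and 70, 65, 67 and 70 in mice 9 to 12, so that 7 of 8 mice lay between 65 and 70. The higher normalized counts of mice 9 and 12 were thus reached from counts like those of the other mice. Cxcr2 had 39, 25, 44 and 23 counts in mice 5 to 8 and 30, 34, 38 and 37 in mice 9 to 12, and Cxcl10 had 38, 27, 49 and 30 and then 22, 44, 35 and 32. Within the tributyrin group, the mean count before scaling in mice 9 and 12 over that in mice 10 and 11 was 0.648 for the panel total and had a median of 0.639 over 97 genes whose mean was 1000 or more. It had a median of 0.827 for the 9 members, with 1.06 for Cxcl1, 0.931 for Cxcr2 and 0.684 for Cxcl10. For the 8 tissue-restricted genes the median was 0.791.

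**Figure D4:**
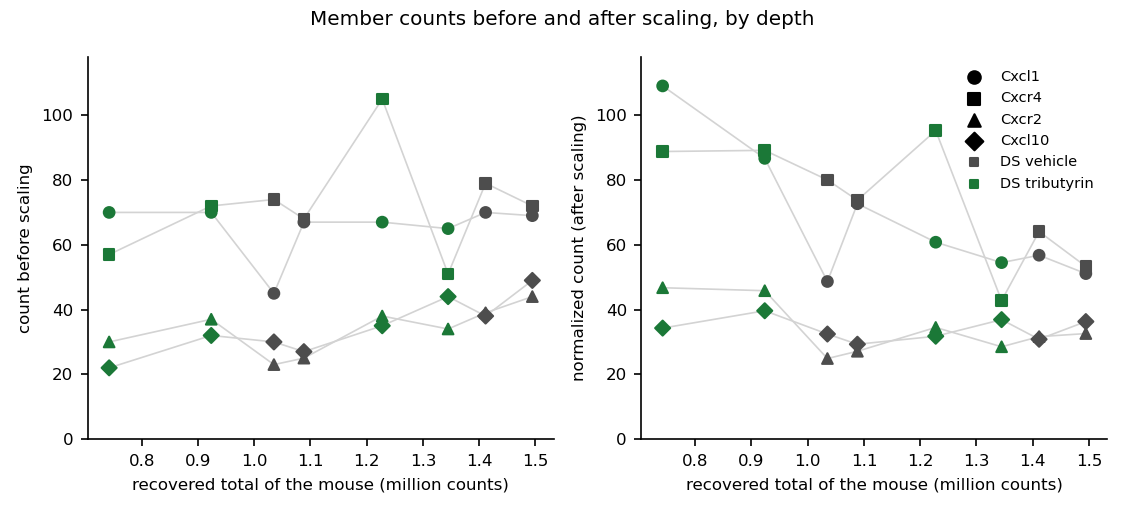
Counts of Cxcl1, Cxcr4, Cxcr2 and Cxcl10 before scaling (left) and after scaling (right) against the recovered total of each mouse, with 1 point per mouse and group by colour. Before scaling Cxcl1 stays at 65 to 70 in 7 of 8 mice, and after scaling its highest value is in the mouse with the smallest total.

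The spread of some members was near what counting alone would give, and that of others exceeded it. The SD expected from the recovered counts was 0.25 on the log2 scale for Cxcr2, 0.27 for Cxcl9 and 0.33 for Cxcr1, against measured SDs within groups of 0.28, 0.32 and 0.36. For Cxcl1 and Cxcr4 the measured SDs, 0.37 and 0.43, exceeded the 0.18 and 0.17 expected. Those of Cxcl2, Cxcl3 and Cxcl5, 0.41, 0.60 and 0.36, exceeded the 0.26, 0.37 and 0.22 expected. That of Cxcl10, 0.13, lay below the 0.25 expected. The lowest value, 8 counts of Cxcl3 in vehicle mouse 6, has an exact 95% Poisson interval of 3.45 to 15.8 counts, which covers counting error only.

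The signs of the 9 log2 fold changes moved with the normalization and with the shallow mice. Without mice 9 and 12, 5 of 9 stayed above 0, the median was 0.02, Cxcl1 was 0.02 and Cxcr2 was 0.12, while Cxcl2 (-0.033), Cxcl3 (-0.18), Cxcl5 (-0.16) and Cxcr4 (-0.070) were below 0. With quantile normalization 4 of 9 were above 0. Centring each mouse on the tissue-restricted genes lowers every log2 fold change alike, by 0.33, and so leaves the order of the genes as it was. Cxcl1 and Cxcr2 were above 0 in every setting run, from 0.02 to 0.55 and from 0.07 to 0.54. They had the largest log2 fold changes as deposited, 0.40 each. Shifts of all genes by -0.26 (counts before scaling) and -0.33 (that centring) therefore could not bring them below 0. The filter at a mean of 20, the mean-variance trend and the Mann-Whitney test keep each log2 fold change. Their signs in all these settings thus say nothing about stability. No member passed an adjusted p of 0.05 in any setting run, and the smallest adjusted p was 0.118, for Cxcr2 without tributyrin mouse 10.

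**Figure D5:**
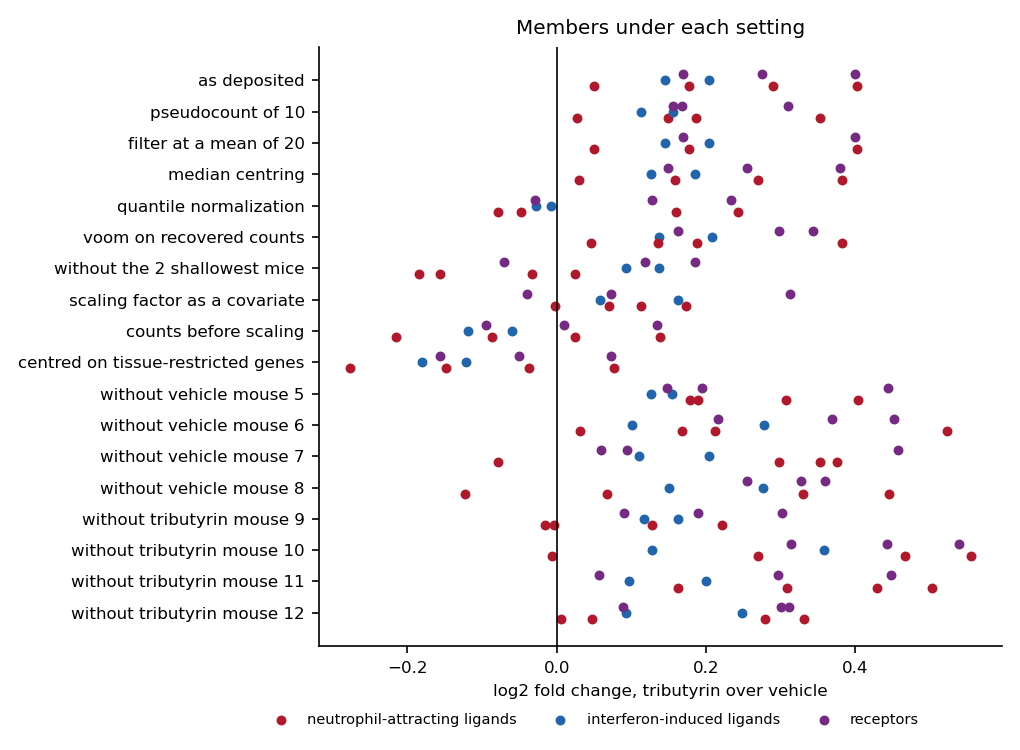
Log2 fold change of the members, tributyrin over vehicle, with 1 row per setting and 1 point per gene, coloured by role. All 9 points lie above 0 as deposited, 4 of 9 with quantile normalization and 5 of 9 without the 2 shallowest mice.

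The signals known to induce these ligands were listed as well, with the results of the panel known. Of 19 measured inducers of the neutrophil-attracting ligands, 0 passed the test in either direction. Their log2 fold changes were above 0 for 9, beside 71.4% of the panel, and below 0 for 10, with a median of -0.01. Il17a, the cytokine of Th17 cells that induces Cxcl1 and Cxcl5 in epithelium, had 17.8 to 22.8 normalized counts with vehicle and 23.5 to 36.3 with tributyrin. Every tributyrin mouse was higher (log2 fold change 0.55, limma adjusted p = 0.167), at a level as low as that of the members. Tnf had a log2 fold change of -0.35 (adjusted p = 0.454), the vehicle mean being 473.8 ± 86.2 (SD, n = 4) and the tributyrin mean 369.7 ± 59.0 (SD, n = 4). Ltb, the gene of lymphotoxin beta, had -0.27 (adjusted p = 0.366).

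Of 14 measured inducers and companions of the interferon-induced ligands, 0 passed in either direction. Their log2 fold changes were above 0 for 8, beside 71.4% of the panel, and below 0 for 6, with a median of 0.04. Before adjustment, 6 of the 14 had a limma p under 0.05, beside 12.5% of the panel. No excess can be read from this, as the list was drawn up with the panel results known and includes Ifi44 and Ifit1. Ifi44, Ifit1 and Irf7, which are interferon-stimulated like Cxcl10, each had all 4 tributyrin mice below all 4 vehicle mice, with log2 fold changes of -1.35, -1.21 and -0.33 (limma adjusted p = 0.0516 for each). Ifi44 and Ifit1 passed an adjusted p of 0.05 in 8 of 12 alternative settings and Irf7 in 6 of 12, lower with tributyrin in each. These include centring on tissue-restricted genes and, for Ifi44 and Ifit1, counts before scaling, which lower every log2 fold change alike. None of these genes passed with quantile normalization, with the scaling factor as a covariate or without the 2 shallowest mice. In the fits without a single mouse, which are not among the 12, each passed in 1. The interval of Cxcl10 (-0.07 to 0.36) and that of Cxcl9 (-0.26 to 0.67) lie above the values of Ifi44 and Ifit1, and the difference between these genes was not tested. Cxcl9 and Cxcl10 are measured at far lower counts than these genes, and each exceeded the highest tissue-restricted gene in 0 of 8 mice. How far background holds their log2 fold changes near 0 was not tested, so a lack of response cannot be read from their intervals. The interval of Cxcl10 also rests on a within-group SD (0.13) below that expected from counting (0.25).

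Of 24 genes of chemokine receptor signalling, 0 passed, with 20 log2 fold changes above 0, beside 71.4% of the panel, 4 below and a median of 0.03. The members of that list with the smallest unadjusted p were Prkca, a protein kinase C (log2 fold change -0.09), Gnas, a G protein alpha subunit (0.07), and Pik3c2g, a phosphoinositide 3-kinase (0.20), with adjusted p of 0.480 to 0.610. Of 13 other neutrophil attractants and growth factors, 0 passed, with 8 above 0, beside the same 71.4%, 5 below and a median of 0.09. Besides Il17a, those with the smallest unadjusted p were Alox5, which makes leukotrienes (0.18, adjusted p = 0.416), and Mmp9, a protease of neutrophil granules and stressed epithelium (0.27, adjusted p = 0.454).

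The CC chemokines and their receptors, the sister family, gave a like picture of low counts. Of 13 CC chemokines, 0 passed, 11 were above 0 and 2 below, the median was 0.22, and 12 had a mean under 100. Above 0 lay 71.4% of the panel and 81.3% of the 96 genes outside the CXC members with a mean under 100. Before adjustment, 2 of the 13 had a limma p under 0.05, beside 12.5% of the panel. Ccl19, which draws Ccr7-bearing cells, had 0.33 and Ccl8 had 0.23 (adjusted p = 0.366 and 0.393), and Ccl24, an eotaxin, had 0.32 (adjusted p = 0.454). Of 5 CC receptors, 0 passed, 4 were above 0 and 1 below, and 4 had a mean under 100. Before adjustment, 3 of the 5 had a limma p under 0.05, in both directions, beside 12.5% of the panel. Whether this list of 5 genes differs from the panel was not tested. Ccr7, a receptor of dendritic and T cells, had 9.63 to 11.9 normalized counts with vehicle and 13.6 to 20.3 with tributyrin (log2 fold change 0.64, limma adjusted p = 0.0752). Ccr3, an eosinophil receptor, had -0.49 (adjusted p = 0.216) and Ccr2, a monocyte receptor, had 0.41 (adjusted p = 0.321).

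Markers of the cells that carry these receptors could be read only in part. Of 14 neutrophil markers listed, 2 were measured, Itgb2 and Ltb4r1, neither of them particular to neutrophils. Their summed level was 1389.7 to 1621 normalized counts with vehicle and 1329 to 1587 with tributyrin, with 1 log2 fold change above 0 and 1 below. Of 14 monocyte and macrophage markers, 9 were measured, summing to 23917 to 28693 and to 22507 to 28364, and 8 of the 9 log2 fold changes were above 0. Of 10 T and natural killer cell markers, 6 were measured, summing to 131.8 to 163.9 and to 146.1 to 201.0, with 6 of 6 above 0. All 6 had a mean under 100, where 81.3% of the genes outside the CXC members lay above 0, and the 8 of 9 macrophage markers stand beside 71.4% of the panel. A limma p under 0.05 before adjustment occurred for 1 of 2, 2 of 9 and 1 of 6 markers, in the order of these lists. On the panel that share was 12.5%. No measured marker was at 0, but the lowest mean of the 248 panel genes was 8.66 normalized counts. The 8 tissue-restricted genes had means of 18.7 to 56.7, so a count above 0 does not show that a cell type was present. None of the measured markers passed the test. Their part in the values of the CXC genes was not tested.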

How the data were processed

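Conjunctival RNA of 4 DS vehicle and 4 DS tributyrin mice was hybridized to an nCounter panel of mouse inflammation genes. Using ROSALIND, the authors normalized counts by reference genes, through their geometric mean in each sample. The deposited values are these normalized counts on the log2 scale, for 248 genes in 1 column per mouse. The sources used here do not state whether background was subtracted. A scaling that multiplies all counts of a mouse also multiplies any background in low genes.

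Group was the only term of the limma 3.58.1 model (R 4.3.3; lmFit, eBayes without a trend), fitted to the deposited values without a filter, and p-values were adjusted across all genes by Benjamini-Hochberg. No pair of groups shares a replicate number. Counts before scaling were recovered from the step of each mouse (tolerance 0.001), which leaves unknown a whole number added or subtracted before scaling. Members and lists were chosen with earlier results of these data known. All 9 members are named, and of each list the 3 genes with the smallest unadjusted p. Genes most like a member were to be named for members with a mean of at least 100, which no member reached. GeneIDs were matched to GRCm38.p6 (247 of 248). limma was tested on simulated data. Alternatives were a pseudocount of 10, filters at means of 20 and 100, quantile normalization, centring on the median, voom, a mean-variance trend, an exact Mann-Whitney test, the scaling factor as a covariate, and leaving out each mouse or the 2 shallowest. Counts before scaling and centring on tissue-restricted genes were added after seeing the data. Tables and plots were made with Python 3.11.15, SciPy 1.17.1 and matplotlib 3.10.9.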

Additional observations from a re-analysis of the deposited data

Results flagged for a closer look

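In 52 groups of 4 mice (26 genes named above, 18 of the groups being those of the 9 members), 5 had 1 mouse far from the other 3, where about 2.6 arise by chance at 1 in 20. For Cxcr4, tributyrin mouse 10 was low, with a log2 value of 5.42 against 6.47 to 6.57. For Cxcr1, tributyrin mouse 9 was high, with 4.64 against 4.27 to 4.32. Among the other genes, Pik3c2g was high in tributyrin mouse 9 (5.28, others 4.77 to 4.83), Ccl19 low in vehicle mouse 8 (5.89, others 6.27 to 6.33) and Ifit1 low in tributyrin mouse 12 (9.69, others 9.92 to 9.95).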

How the results depend on the processing

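The count of 0 members past an adjusted p of 0.05 was 0 under every alternative run, except that a filter at a mean of 100 left no member to test. The count of 0 panel genes became 6 after median centring, 6 when 10 was added before the logarithm, 7 by voom, 7 under a mean-variance trend, 6 and 7 where genes with a mean under 20 or under 100 were dropped, 4 on counts before scaling and 14 with centring on tissue-restricted genes. It was 0 with quantile normalization, the covariate, the exact Mann-Whitney test and without the 2 shallowest mice, and 0 to 6 without each mouse (6 when vehicle mouse 8 was left out, 4 for tributyrin mouse 11 and 1 for vehicle mouse 5). The smallest p of the exact Mann-Whitney test, 0.0286, became 0.394 when adjusted, so its counts say nothing about stability. The filter at a mean of 20, the mean-variance trend and the Mann-Whitney test keep each log2 fold change, so no sign could change there. With those values included, 28 of 169 values of single members under alternatives had the opposite sign and 0 passed the threshold. With quantile normalization these were Cxcl2 (-0.079), Cxcl5 (-0.047), Cxcl9 (-0.0076), Cxcl10 (-0.028) and Cxcr4 (-0.029). Without the 2 shallowest mice they were Cxcl2 (-0.033), Cxcl3 (-0.18), Cxcl5 (-0.16) and Cxcr4 (-0.070), and with the scaling factor added to the model Cxcl2 (-0.0021) and Cxcr4 (-0.039). Counts before scaling and centring on tissue-restricted genes move every log2 fold change alike, by -0.26 and -0.33, so signs there follow from that shift. On counts before scaling, where the panel median was -0.21, they were Cxcl2 (-0.21), Cxcl5 (-0.087), Cxcl9 (-0.060), Cxcl10 (-0.12) and Cxcr4 (-0.095). With centring on tissue-restricted genes they were Cxcl2 (-0.28), Cxcl3 (-0.037), Cxcl5 (-0.15), Cxcl9 (-0.12), Cxcl10 (-0.18), Cxcr1 (-0.051) and Cxcr4 (-0.16). Without each mouse Cxcl2 ranged from -0.12 to 0.21 and Cxcl3 from -0.016 to 0.47. The share of panel genes above 0 was 71.4% as deposited, 58.9% with quantile normalization, 54.8% without the 2 shallowest mice, 16.9% before scaling and 9.68% with that centring.

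The median of the neutrophil-attracting ligands, 0.23, became -0.095 without the 2 shallowest mice, -0.031 before scaling and -0.092 with centring on tissue-restricted genes. That of the interferon-induced ligands, 0.18, became -0.018 with quantile normalization, -0.090 before scaling and -0.15 with that centring. That of the receptors, 0.28, became 0.010 before scaling and -0.051 with that centring. Of the other genes named, Prkca turned to 0.18 with quantile normalization, Alox5, Ccl8, Gnas and Pik3c2g to -0.083, -0.035, -0.20 and -0.069 before scaling, and Alox5, Ccl24, Ccl8, Gnas, Mmp9 and Pik3c2g to -0.14, -0.0093, -0.096, -0.26, -0.054 and -0.13 with that centring. For the other settings the cause was not tested. Calls were gained by Ifi44 and Ifit1 in 8 of 12 alternatives (highest adjusted p 0.0448) and by Irf7 in 6. The fits without a single mouse are not among the 12, and in them each of these genes passed in 1. Ccr7 gained a call with median centring (adjusted p = 0.0371) and without tributyrin mouse 11 (0.0484). Its group means lay below the mean of every tissue-restricted gene. Tnf (0.0107), Ccr3 (0.00566) and Ltb (0.0499) did so with centring on tissue-restricted genes. Calls in that setting and on counts before scaling come with a downward shift of every log2 fold change. The 9 members rest on 8 to 105 counts per mouse. No paired analysis was possible because vehicle and tributyrin mice carry different numbers.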
